A study of Homo sapiens with 17 samples.

Results

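The genes described here build and police the mitotic spindle. They are 42 genes taken from a list of mitotic kinases, cyclins, kinetochore proteins, checkpoint proteins, kinesins and cytokinesis proteins, sorted by role into mitotic entry (5 genes), Polo and Aurora kinases with the chromosomal passenger complex (6), spindle checkpoint (6), kinetochore and centromere (7), kinesins (11), spindle assembly and cytokinesis (4) and chromosome condensation (3). Their symbols were matched to the Ensembl identifiers of the expression table, where all 42 were found among 60664 genes. Averaged over the 12 libraries, 41 of the 42 genes reached the minimum of 10 normalized counts and were tested among 15599 genes, and PRC1 was below that level. RNA-Seq was performed in SF8628 cells, a cell line from a diffuse intrinsic pontine glioma (DIPG) that belongs to the H3K27M-mutant diffuse midline gliomas. Cells grown as monolayers in medium with fetal bovine serum received vehicle (DMSO) or 1 μM AZD5153, an inhibitor of BET bromodomain proteins, for 24 or 48 hours, with 3 libraries in each of the 4 groups, and the comparison asks what the inhibitor does to gene expression. All groups are of this 1 cell line, and no source used here says that the 3 libraries of a group came from separate cultures, so p-values measure the spread between these libraries, which may be technical.

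Cells enter mitosis when CDK1 bound to B-type cyclins becomes active, and Polo and Aurora kinases then drive spindle assembly and the attachment of kinetochores to microtubules. Unattached kinetochores produce a checkpoint complex of MAD2 and BUBR1 that holds CDC20 and so restrains the anaphase-promoting complex, while kinesin motors slide, cross-link and depolymerize microtubules and the central spindle guides cytokinesis. RNA of most of these genes is low in G1 and high in G2 and mitosis, through promoter elements bound by the MuvB complex with B-MYB and FOXM1.

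Values are normalized counts, that is, reads on a gene divided by a size factor of the library, and they were compared as log2(normalized count + 1) with limma across all 15599 genes, all 4 groups in 1 fit, with Benjamini-Hochberg adjustment at 0.05. Fold changes understate the change of low genes on this scale, and an error given as ± is the SD of 3 libraries. Reads on genes numbered 15759148 to 27335220 in a library. DMSO replicate 1 at 24 hours stood apart from its replicates. Its chi-square against them, divided by the degrees of freedom, was 15.2 and 22.9, where the other pairs of replicates had 2.09 to 4.82. It was above both its replicates in 27 of the 41 genes and below both in 12. Of the glioma and neural markers, OLIG2 was at 0 in all 12 libraries and PDGFRA had a mean of 2.66, while SOX2 (mean 191), NES (mean 1336) and CD44 (mean 6404) were present. Summed markers of immune cells were 177 to 213 in the DMSO libraries and 25.6 to 48.9 in the AZD5153 libraries, of endothelial cells 324 to 636 and 50.0 to 67.0, and of oligodendrocytes 198 to 344 and 37.7 to 46.9. The immune sum was mostly CSF1R, with CD3E at 0 and PTPRC and CD68 under 5, the endothelial sum held no CDH5, the oligodendrocyte sum held no MOG, the epithelial sum stayed at or under 50.0, and neuronal markers summed to 701 to 922 in all groups. The part of other cell types in the results was not tested.

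At 24 hours of AZD5153 all 41 tested mitotic genes were lower than in DMSO. The fall ran from -0.90 on the log2 scale for CDC20 to -2.77 for TOP2A, with a median of -2.01, so that the median gene was left at 24.8% of its DMSO level. At 48 hours 40 of the 41 genes were lower, with a median of -1.13 and 45.6% of the DMSO level, and NCAPG did not pass the test. The level in DMSO itself fell between 24 and 48 hours while that in AZD5153 rose, so the gap closed from both sides.

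In limma, 41 of 41 genes were lower at 24 hours and 0 higher, where 34.6% of all 15599 genes tested were lower and 33.9% higher, and the largest adjusted p among the 41 was 4.76e-09 for CDC25C. For 38 of them the fall was larger than 2-fold by limma's treat test, against 8.78% of all genes, the exceptions being BIRC5, BUB3 and CDC20. At 48 hours 40 were lower and 0 higher, where 33.9% of all genes were lower and 33.1% higher, and 18 were lower by more than 2-fold, against 9.18%. Over both times together 41 were lower, where 38% of all genes were lower and 37.7% higher, with a median of -1.66. All 3 AZD5153 libraries were below all 3 DMSO libraries for 41 of 41 genes at 24 hours, as for 34.8% of all genes, and again for 41 of 41 at 48 hours, as for 37.2% of all genes. The median of all genes tested was 0.00037 at 24 hours and 0.0011 at 48 hours. That median depends on the scaling by size factors, and with equal totals per library it was -0.12 and -0.17. Without DMSO replicate 1 at 24 hours the same counts at 24 hours were 41 lower and 38 lower by more than 2-fold, with a median of -1.99. In bulk RNA, fewer cells in the phases that express these genes and less RNA per cell cannot be told apart.

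**Figure D1:**
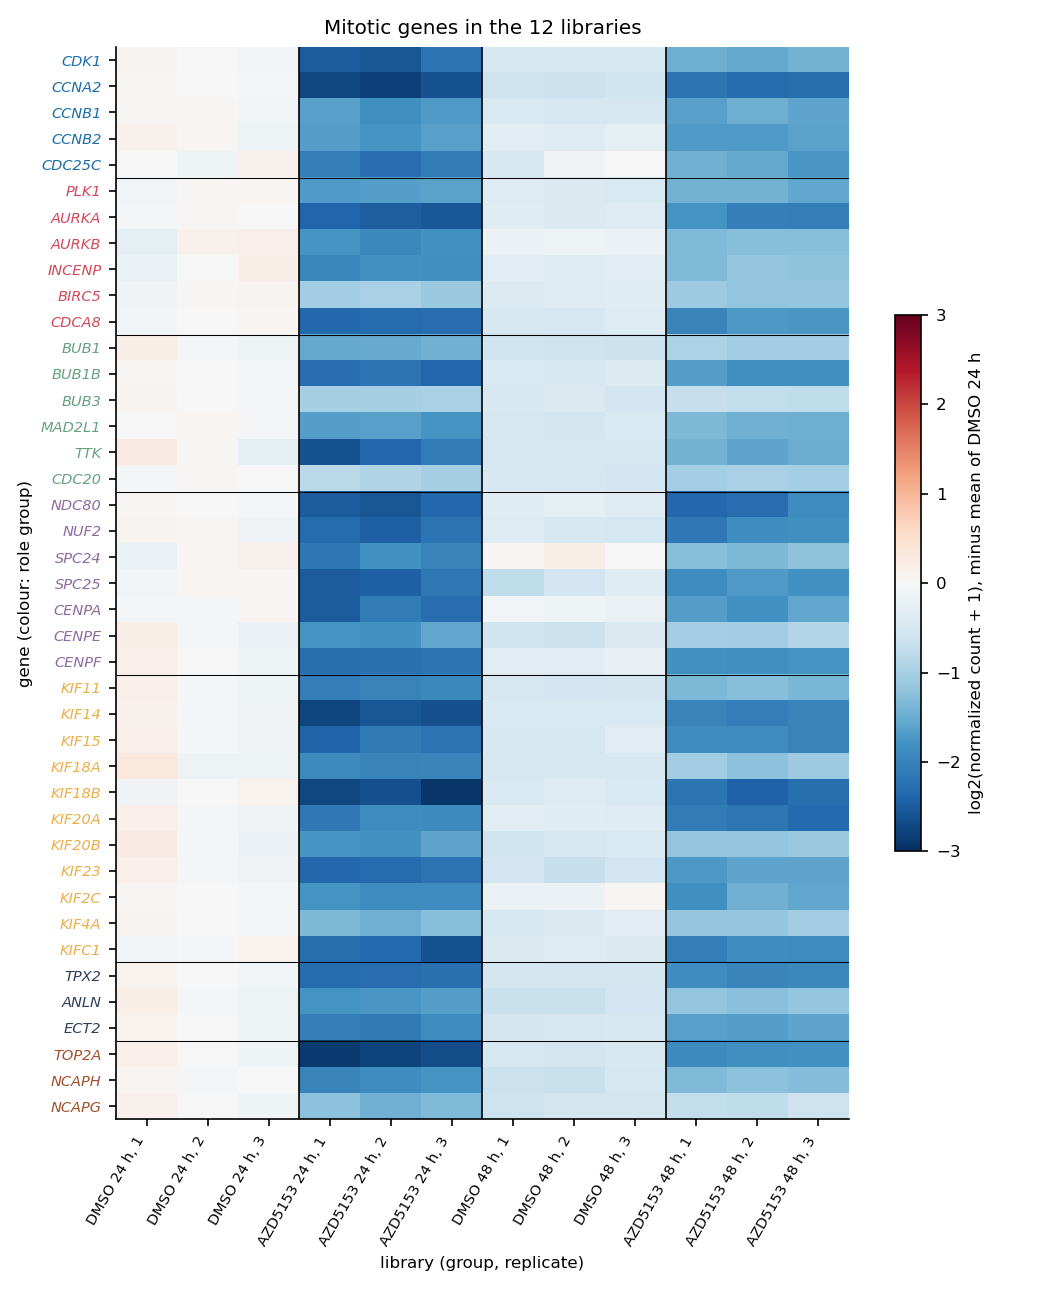
Level of the 41 tested mitotic genes (rows, names coloured by role) in the 12 libraries (columns), as log2(normalized count + 1) minus the gene's mean in the 3 DMSO libraries at 24 hours. The AZD5153 columns are darkest blue at 24 hours, with a median per library of -2.08 to -1.97, and lighter at 48 hours, with -1.63 to -1.54, and the DMSO columns at 48 hours have medians of -0.49 to -0.45.

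By library, the median of the 41 genes against their DMSO mean at 24 hours was -2.08, -2.01 and -1.97 with AZD5153 at 24 hours and -1.63, -1.54 and -1.56 with AZD5153 at 48 hours. In DMSO at 48 hours it was -0.47, -0.49 and -0.45. The 3 groups did not overlap in this median, and AZD5153 at 24 hours was lowest. By role, the median log2 fold change at 24 hours was -2.29 for kinetochore and centromere genes, -2.15 for mitotic entry, -2.03 for spindle assembly and cytokinesis, -2.01 for kinesins, -1.88 for chromosome condensation, -1.86 for the Polo, Aurora and passenger group and -1.59 for the checkpoint. At 48 hours the order was kinetochore and centromere (-1.48), kinesins (-1.47), mitotic entry (-1.35), spindle assembly and cytokinesis (-1.11), Polo, Aurora and passengers (-1.08), checkpoint (-0.70) and condensation (-0.68). The checkpoint group thus fell least at 24 hours, and checkpoint and condensation least at 48 hours. These medians over 3 to 11 genes are a description, and differences between the role groups were not tested. Across the 41 genes the effect at 24 hours and that at 48 hours were correlated with Pearson's r of 0.752 and Spearman's rho of 0.715. The genes share the same 12 libraries and are not independent replicates. Neither the log2 level per kilobase in DMSO at 24 hours (Pearson 0.106) nor the log2 exon length (Pearson 0.0841) tracked the effect at 24 hours. The DMSO libraries at 24 hours enter both sides of the first of these correlations.

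**Figure D2:**
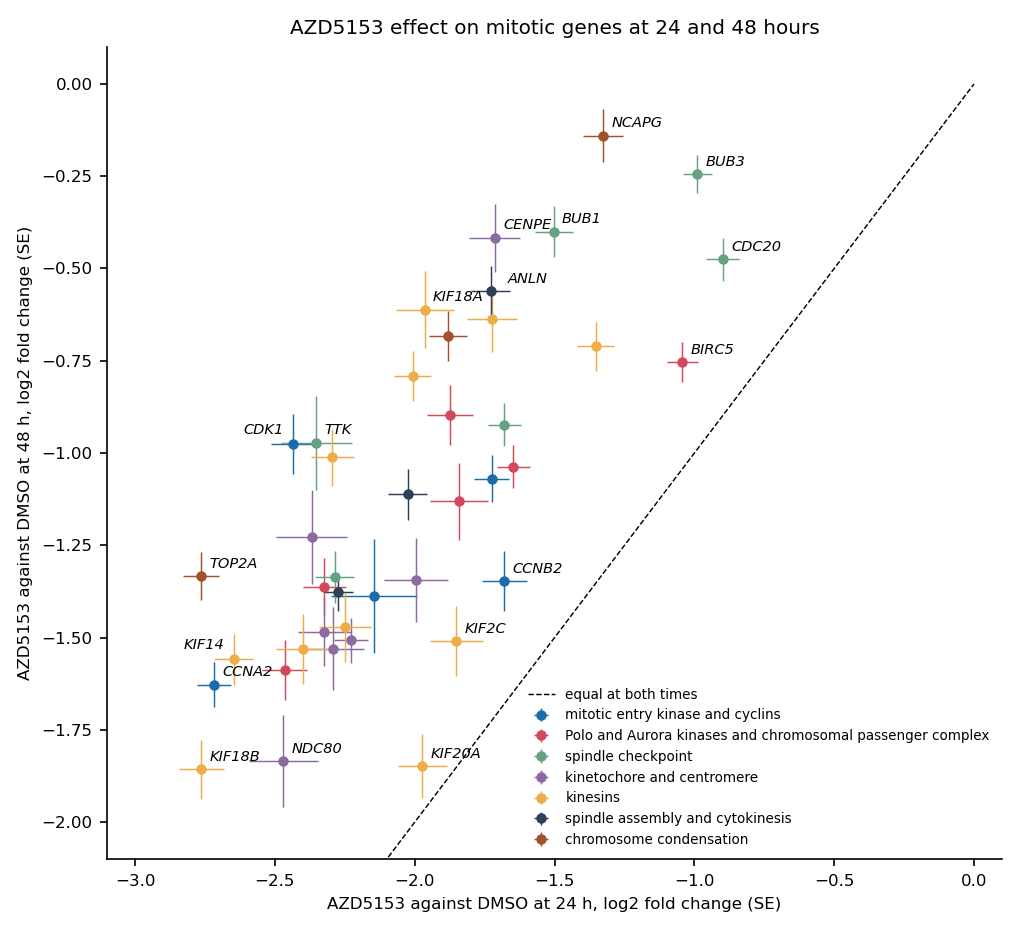
Log2 fold change of AZD5153 against DMSO at 24 hours (horizontal axis) and at 48 hours (vertical axis) for the 41 tested genes, with SE as bars, colours for the role groups and a dashed line where both are equal. All 41 points lie above the line, KIF20A closest to it (-1.97 and -1.85) and NCAPG near 0 at 48 hours (-1.33 and -0.14).

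All 5 genes of mitotic entry fell at both times, where 34.6% and 33.9% of all genes were lower. CCNA2 (ENSG00000145386, chr4:121816444-121823883, minus strand; positions here are those of GENCODE 44 on GRCh38) encodes cyclin A2, the partner of CDK2 in S phase and of CDK1 in G2, and had the largest fall of the group over both times. It was at 3504, 3402 and 3313 normalized counts in the DMSO libraries at 24 hours and at 508, 489 and 556 with AZD5153. At 48 hours it was at 2203, 2181 and 2252 in DMSO and at 749, 692 and 706 with AZD5153. The AZD5153 libraries were far below the DMSO libraries at both times. The log2 fold change was -2.72 (SE 0.061, adjusted p = 8.33e-15) at 24 hours and -1.63 (SE 0.061, adjusted p = 2.2e-12) at 48 hours, and 9.24% of its exon bases overlap EXOSC9 on the other strand. CCNB1 (ENSG00000134057, chr5:69167135-69178245, plus strand), cyclin B1, was the least reduced over both times. Its values were 4439.8, 4408 and 4078 in DMSO and 1397, 1198 and 1317 with AZD5153 at 24 hours. CCNB1 at 48 hours was at 3143, 3014 and 3012 in DMSO and 1392, 1554 and 1426 with AZD5153. Again no library overlapped, and the AZD5153 libraries at 48 hours lay close to those at 24 hours. By limma the log2 fold change was -1.73 (SE 0.064, adjusted p = 1.99e-12) at 24 hours and -1.07 (SE 0.064, adjusted p = 5.19e-10) at 48 hours. CDK1, the kinase itself (chosen for its large change between times, after its values were seen), went from 2589, 2493 and 2305 in DMSO to 432, 414 and 525 with AZD5153 at 24 hours. At 48 hours it was at 1702, 1753 and 1765 in DMSO and 895, 844 and 916 with AZD5153, above every treated library at 24 hours. CCNB2, cyclin B2, fell too (-1.68 at 24 hours and -1.35 at 48 hours) on the log2 scale. CDC25C, the phosphatase that activates CDK1, also fell (-2.15 at 24 hours and -1.39 at 48 hours), and 8.80% of its exon bases overlap the more abundant FAM53C on the other strand.

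All 6 Polo, Aurora and passenger genes fell at both times, beside 34.6% and 33.9% of all genes. AURKA (ENSG00000087586, chr20:56369389-56392337, minus strand), the centrosomal Aurora kinase, had the largest fall. It was at 1616, 1689 and 1661 in DMSO and 318, 296 and 284 with AZD5153 at 24 hours. The 3 DMSO libraries at 48 hours had 1294, 1230.5 and 1266, and the 3 AZD5153 libraries 479.6, 397 and 389. That left 18.1% and 33.4% of the DMSO mean, with no overlap. The log2 fold changes were -2.47 (SE 0.082, adjusted p = 5.66e-13) and -1.59 (SE 0.082, adjusted p = 8.26e-11). BIRC5 (ENSG00000089685, chr17:78214186-78225636, plus strand) encodes survivin, the passenger subunit that brings Aurora B to centromeres. It was the least reduced of the group, at 5660.5, 6240.2 and 6417 in DMSO and 2942, 3105 and 2832 with AZD5153 at 24 hours. At 48 hours its values were 4580.3, 4658 and 4715 in DMSO and 2879, 2703 and 2695 with AZD5153. The treated libraries held roughly the same level at both times, and the DMSO libraries were above them throughout. On the log2 scale the effect was -1.04 (SE 0.055, adjusted p = 1.13e-10) and then -0.75 (SE 0.055, adjusted p = 5.45e-09). Its partners in the complex had larger fold changes, namely the kinase AURKB (-1.84 at 24 hours and -1.13 at 48 hours), the scaffold INCENP (-1.87 and -0.90) and borealin, CDCA8 (-2.32 and -1.36). PLK1, the Polo kinase of centrosomes and kinetochores, fell as well (-1.65 at 24 hours and -1.04 at 48 hours). Within this complex the lowest and highest remaining share were those of CDCA8 and BIRC5 at both times, with BIRC5 at 48.5% and CDCA8 at 19.9% of DMSO at 24 hours, and 59.3% and 38.9% at 48 hours.

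All 6 checkpoint genes fell at both times, with the smallest falls at 24 hours in BUB3 and CDC20. Of all genes, 34.6% and 33.9% were lower at these times. BUB1B (ENSG00000156970, chr15:40161023-40221123, plus strand), which encodes BUBR1, fell most over both times. It was at 1814, 1759 and 1741 in DMSO and 361, 381 and 346 with AZD5153 at 24 hours. BUB1B had values at 48 hours of 1288, 1259 and 1339 in DMSO and 559, 490.0 and 492 with AZD5153. Groups did not overlap at either time. AZD5153 changed it by -2.29 (SE 0.070, adjusted p = 2.38e-13) at 24 hours and -1.33 (SE 0.070, adjusted p = 1.04e-10) at 48 hours on the log2 scale. BUB3 (ENSG00000154473, chr10:123154402-123170467, plus strand), the binding partner of BUB1 and BUBR1, fell least over both times. Its values were 4426, 4163 and 4062 in DMSO and 2110.4, 2116 and 2141 with AZD5153 at 24 hours. By 48 hours BUB3 stood at 3044, 3122 and 2852 in DMSO and 2617, 2526 and 2468 with AZD5153. The treated level was near 50.3% of DMSO at 24 hours and 84.4% at 48 hours. The fold changes were -0.99 (SE 0.051, adjusted p = 9.71e-11) and -0.24 (SE 0.051, adjusted p = 0.000564). BUB1, the checkpoint kinase that docks at kinetochores, fell much less at 48 than at 24 hours (-1.50 at 24 hours and -0.40 at 48 hours). At 48 hours it was at 2842 ± 45.5 in DMSO and 2155 ± 84.6 with AZD5153 (SD, n = 3). TTK, the MPS1 kinase (-2.35 at 24 hours and -0.97 at 48 hours), and MAD2L1, the MAD2 protein that holds CDC20 (-1.68 and -0.92), fell at both times. CDC20, the activator of the anaphase-promoting complex and the target of the checkpoint, fell (-0.90 at 24 hours and -0.48 at 48 hours). Of all 41 genes it had the smallest fall at 24 hours.

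All 7 kinetochore and centromere genes fell at both times, where 34.6% and 33.9% of all genes were lower. At 24 hours 7 of 7 fell by more than 2-fold and at 48 hours 5 of 7, against 8.78% and 9.18% of all genes. NDC80 (ENSG00000080986, chr18:2571557-2616635, plus strand), the microtubule-binding subunit of the NDC80 complex, had the largest fall over both times. It was at 533, 515 and 505 in DMSO and 91.2, 87.0 and 100.4 with AZD5153 at 24 hours. NDC80 at 48 hours was at 402, 433 and 396 in DMSO and 101, 105 and 139 with AZD5153. It kept 17.9% and 28.1% of its DMSO mean. By limma the log2 fold change was -2.47 (SE 0.12, adjusted p = 6.53e-11) at 24 hours and -1.84 (SE 0.12, adjusted p = 2.24e-09) at 48 hours. The other 3 subunits of that complex fell too, NUF2 (-2.32 at 24 hours and -1.48 at 48 hours), SPC24 (-2.00 and -1.34) and SPC25 (-2.37 and -1.23). The 4 subunits thus lay between -2.47 and -2.00 at 24 hours. CENPF (ENSG00000117724, chr1:214603185-214664574, plus strand), a large protein of the outer kinetochore and a usual marker of G2 cells, fell at both times. Its values were 14480.0, 12865 and 11997 in DMSO and 2708, 2783 and 2884 with AZD5153 at 24 hours. The 3 DMSO libraries at 48 hours had 10487, 10302 and 11253, and the 3 AZD5153 libraries 3741, 3662 and 3857. Treated libraries were tightly grouped and well below DMSO at both times. On the log2 scale the effect was -2.23 (SE 0.061, adjusted p = 6.56e-14) and then -1.51 (SE 0.061, adjusted p = 5.25e-12). CENPE (ENSG00000138778, chr4:103105349-103198445, minus strand), the kinesin that carries chromosomes to the metaphase plate, was the least reduced. It was at 3795, 3253 and 2940.2 in DMSO and 961, 946 and 1127 with AZD5153 at 24 hours. CENPE had values at 48 hours of 2174, 2111 and 2454 in DMSO and 1625, 1618 and 1800.2 with AZD5153. At 48 hours its treated mean was 74.8% of the DMSO mean of that time, which was lower than at 24 hours, with the groups still apart. AZD5153 changed it by -1.71 (SE 0.092, adjusted p = 1.49e-10) at 24 hours and -0.42 (SE 0.092, adjusted p = 0.00087) at 48 hours on the log2 scale. CENPA, the histone variant that marks centromeres, fell (-2.29 at 24 hours and -1.53 at 48 hours), and 7.08% of its exon bases are shared with SLC35F6 on the same strand.

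All 11 kinesins fell at both times, against 34.6% and 33.9% of all genes. Each fell by more than 2-fold at 24 hours and 6 of 11 at 48 hours, where 8.78% and 9.18% of all genes did. KIF18B (ENSG00000186185, chr17:44924709-44947773, minus strand), a kinesin that shortens astral microtubules, had the largest fall of all 41 genes over both times. It was at 4058, 4404 and 4746 in DMSO and 659.7, 703 and 581 with AZD5153 at 24 hours. By 48 hours KIF18B stood at 3193, 3339.5 and 3177 in DMSO and 957, 811 and 916 with AZD5153. Only 14.7% and 27.6% of its DMSO mean remained. The fold changes were -2.76 (SE 0.080, adjusted p = 1.27e-13) and -1.86 (SE 0.080, adjusted p = 1.14e-11). KIF4A (ENSG00000090889, chrX:70290104-70420886, plus strand), a chromosome-bound kinesin of the central spindle, was the least reduced over both times. Its values were 2351, 2187 and 2123 in DMSO and 873, 814 and 920.4 with AZD5153 at 24 hours. KIF4A at 48 hours was at 1594, 1645 and 1774 in DMSO and 995, 996 and 1069.5 with AZD5153. The groups stayed apart at both times. By limma the log2 fold change was -1.35 (SE 0.067, adjusted p = 5.14e-11) at 24 hours and -0.71 (SE 0.067, adjusted p = 1.12e-07) at 48 hours. KIF20A (chosen after its values were seen), which carries the passenger complex to the central spindle, was the gene whose effect changed least between the times. It was at 2376, 2089 and 1995 in DMSO and 488, 586 and 570.4 with AZD5153 at 24 hours. The 3 DMSO libraries at 48 hours had 1737, 1659 and 1644, and the 3 AZD5153 libraries 499.7, 477 and 424. Its treated libraries at 48 hours overlapped those at 24 hours and had a lower mean. On the log2 scale the effect was -1.97 (SE 0.087, adjusted p = 1.38e-11) and then -1.85 (SE 0.087, adjusted p = 3.01e-11). The motors that push spindle poles apart, KIF11 and KIF15, fell at both times, KIF11 (-2.01 at 24 hours and -0.79 at 48 hours) less than KIF15 (-2.25 and -1.47). KIFC1, which pulls the other way and clusters poles, fell (-2.40 at 24 hours and -1.53 at 48 hours). Other kinesins with roles in cytokinesis fell too, KIF14 (-2.65 at 24 hours and -1.56 at 48 hours), KIF23 (-2.29 and -1.01) and KIF20B (-1.72 and -0.64). KIF18A, which limits chromosome oscillation, fell much less at 48 hours (-1.96 at 24 hours and -0.61 at 48 hours), and KIF2C, the centromeric microtubule depolymerase, fell at both times (-1.85 and -1.51). In KIF18A the DMSO library of replicate 1 at 24 hours was at 1584 and its replicates at 1155 and 1151.

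All 3 tested genes of spindle assembly and cytokinesis fell at 24 and at 48 hours, where 34.6% and 33.9% of all genes were lower. TPX2 (ENSG00000088325, chr20:31739271-31801805, plus strand), the activator of Aurora A on spindle microtubules, fell most. It was at 9373, 8689.5 and 8219 in DMSO and 1775, 1806 and 1843 with AZD5153 at 24 hours. TPX2 had values at 48 hours of 5956, 5948 and 6000.2 in DMSO and 2399, 2224 and 2272 with AZD5153. The groups did not overlap and their spread was narrow. AZD5153 changed it by -2.27 (SE 0.052, adjusted p = 1.04e-14) at 24 hours and -1.38 (SE 0.052, adjusted p = 2.32e-12) at 48 hours on the log2 scale. ANLN (ENSG00000011426, chr7:36389821-36453791, plus strand), anillin of the contractile ring, was the least reduced. Its values were 13013, 11245 and 10346 in DMSO and 3294, 3447 and 3661 with AZD5153 at 24 hours. By 48 hours ANLN stood at 7211, 7221 and 7682 in DMSO and 5054, 4832 and 5099.5 with AZD5153. With both a fall in DMSO and a rise in AZD5153 between the times, it came to 67.8% of DMSO. The fold changes were -1.73 (SE 0.069, adjusted p = 4.03e-12) and -0.56 (SE 0.069, adjusted p = 2.35e-06). ECT2, which activates RhoA at the division plane, fell (-2.03 at 24 hours and -1.11 at 48 hours). PRC1 (ENSG00000198901, chr15:90966040-90995629, minus strand), which bundles the microtubules of the central spindle, had a mean of 8.51 normalized counts and was not tested. It was at 23.7, 13.5 and 8.02 in DMSO and 9.39, 5.12 and 2.45 with AZD5153 at 24 hours. PRC1 at 48 hours was at 9.01, 9.75 and 4.32 in DMSO and 4.56, 9.78 and 2.57 with AZD5153. These ranges overlap at both times. In GENCODE 44, 57.6% of its exon bases are also exons of ENSG00000284946, a protein-coding gene on the same strand, so reads there may have been left out or split between them in counting. ENSG00000284946 (chosen after its values were seen) was at 170.2, 152 and 120.4 in DMSO and 18.8, 19.5 and 15.9 with AZD5153 at 24 hours. The 3 DMSO libraries at 48 hours had 129.7, 133 and 129.6, and the 3 AZD5153 libraries 11.9, 40.2 and 26.5. It was lower with AZD5153 over both times, with a log2 fold change of -2.69 (SE 0.22, adjusted p = 1.48e-08) by limma.

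All 3 condensation genes fell at 24 hours, and 2 of 3 at 48 hours, against 34.6% and 33.9% of all genes. TOP2A (ENSG00000131747, chr17:40388525-40417896, minus strand), the topoisomerase that untangles sister chromatids, had the largest fall of all 41 genes at 24 hours. It was at 20881, 18823 and 17259 in DMSO and 2601, 2779.8 and 2982 with AZD5153 at 24 hours. TOP2A had values at 48 hours of 13106, 13007 and 13538 in DMSO and 5028, 5326 and 5387 with AZD5153. The treated level rose between the times while that in DMSO fell, from 14.7% to 39.7% of the DMSO mean of the same time. By limma the log2 fold change was -2.77 (SE 0.064, adjusted p = 1.24e-14) at 24 hours and -1.33 (SE 0.064, adjusted p = 3.99e-11) at 48 hours. NCAPG (ENSG00000109805, chr4:17810979-17844865, plus strand), a subunit of condensin I, was the exception at 48 hours. Its values were 2515, 2318 and 2111 in DMSO and 983, 856 and 924 with AZD5153 at 24 hours. By 48 hours NCAPG stood at 1511, 1577 and 1574 in DMSO and 1373, 1366 and 1496 with AZD5153. At 48 hours the 3 treated libraries were below the 3 DMSO libraries by a narrow margin. The fold changes were -1.33 (SE 0.072, adjusted p = 1.49e-10) and -0.14 (SE 0.072, adjusted p = 0.0964), with a 95% interval of -0.29 to 0.01 at 48 hours, so a small fall is within the interval. Over the alternative settings the adjusted p at 48 hours ran from 0.0013 to 0.235, passing with equal totals per library, quantile normalization, a fit of the compared groups alone or without DMSO replicate 1 at 24 hours (log2 fold change -0.31, -0.24, -0.14 and -0.14). NCAPG shares 33.7% of its exon bases with LCORL on the other strand, and the counting is not stated to use strand, so reads there cannot be told apart. LCORL (ENSG00000178177, chosen after its values were seen) was at 826, 822 and 852 in DMSO and 326, 387 and 373 with AZD5153 at 48 hours, and fell at 24 and at 48 hours (-1.17 and -1.21). NCAPH, another subunit of condensin I with no overlapped exon base, fell (-1.88 at 24 hours and -0.68 at 48 hours).

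**Figure D3:**
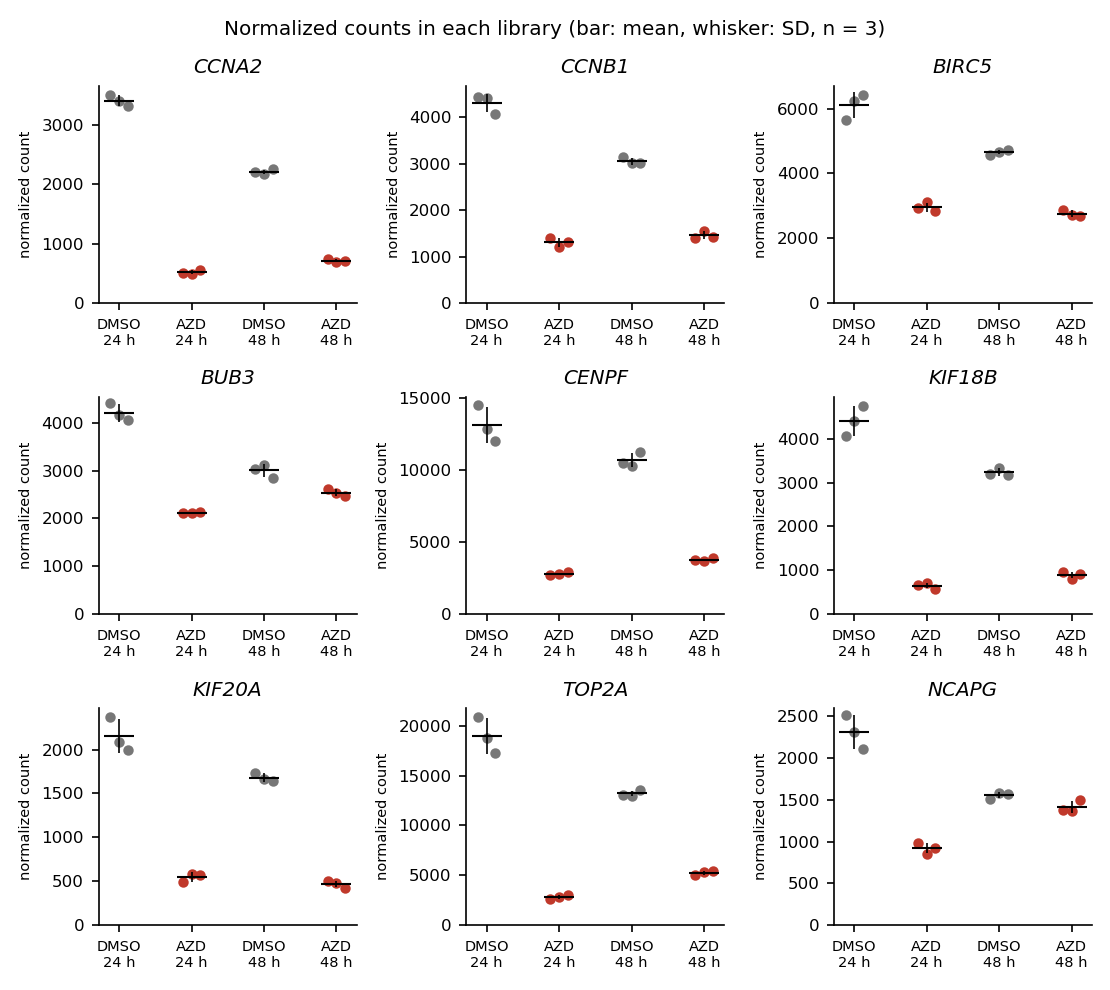
Level of 9 mitotic genes in each library (points), in normalized counts, with the mean (bar) and SD (whisker) of the 3 libraries of a group, on axes that start at 0. At 48 hours BUB3 and NCAPG with AZD5153 are at 84.4% and 90.8% of the DMSO mean of that time. KIF18B and KIF20A are at 27.6% and 27.8%, after 14.7% and 25.4% of the DMSO mean at 24 hours. The DMSO means of these genes are lower at 48 than at 24 hours.

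The effect of AZD5153 was smaller at 48 than at 24 hours for nearly all of these genes. The difference between the effects, 48 minus 24 hours, was positive and passed the test in limma for 39 of 41 genes and negative for 0, where 14.4% of all genes had a positive and 10.1% a negative difference that passed. The median of the differences per gene was 0.90 on the log2 scale. CDK1 had the largest difference, 1.46 (SE 0.11, adjusted p = 6.36e-07), ahead of TOP2A with 1.43 (SE 0.091, adjusted p = 8.97e-08). KIF20A, with 0.12 (SE 0.12, adjusted p = 0.501) and a 95% interval of -0.14 to 0.39, did not pass. Neither did KIF2C, with 0.34 (SE 0.13, adjusted p = 0.0779) and an interval of 0.05 to 0.63. The interval of KIF20A leaves out a difference as large as the median of the group. CCNB2, the weakest call (0.33, adjusted p = 0.0437), was lost when DMSO replicate 1 or 2 at 24 hours, DMSO replicate 1, 2 or 3 at 48 hours, AZD5153 replicate 1 or 2 at 24 hours or AZD5153 replicate 1, 2 or 3 at 48 hours was left out (adjusted p 0.0564 to 0.109). The call of CCNB2 was also lost with a replicate block (0.0603), equal totals (0.0859), quantile normalization (0.125), TMM scaling (0.0636), edgeR (0.0604), no minimum mean (0.0774) or no trend in eBayes (0.0708). BIRC5 lost its call with quantile normalization, where its difference was 0.15 instead of 0.29 (adjusted p = 0.218). CDC25C lost its call without DMSO replicate 1 at 48 hours (adjusted p = 0.0589), which with CCNB2 left 3 of the 5 genes of mitotic entry. KIF2C gained a call without DMSO replicate 3 at 48 hours (0.0443) or AZD5153 replicate 1 at 48 hours (0.0161), or with scaling to 7 stable genes (0.0333).

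Both sides of the comparison moved. In DMSO, 36 of the 41 genes were lower at 48 than at 24 hours and 0 higher, where 19.3% of all genes were lower and 16.4% higher, with a median of -0.47. In AZD5153, 34 genes were higher at 48 than at 24 hours and 0 lower, where 15.8% of all genes were higher and 13.8% lower, with a median of 0.49. Of the 41 genes, 30 were lower in DMSO and higher in AZD5153 over the same interval, 6 were lower in DMSO only by this test (CCNB1, CCNB2, BIRC5, CDC20, NDC80 and KIF20A) and 4 were higher in AZD5153 only (CDC25C, AURKB, SPC24 and CENPA). KIF2C passed in neither (-0.10 in DMSO and 0.24 in AZD5153). The largest rise in AZD5153 was that of CDK1, 0.96 (SE 0.081, adjusted p = 4.52e-07), and the largest fall in DMSO that of ANLN, -0.64 (SE 0.069, adjusted p = 5.48e-06). CDK1 thus spanned 414 to 525 normalized counts in the treated libraries at 24 hours and 844 to 916 at 48 hours. In the treated libraries KIF20A, BIRC5 and CDC20 alone had a lower mean at 48 than at 24 hours, with -0.23, -0.10 and -0.10 on the log2 scale (adjusted p = 0.0581, 0.186 and 0.213). Several calls in this pair of comparisons sat near the threshold. The DMSO fall of NDC80 (adjusted p = 0.0454) was lost without any 1 of the 6 DMSO libraries or without AZD5153 replicate 1 at 24 hours (0.0518 to 0.123). It was also lost with a replicate block (0.0564), equal totals (0.0896), scaling to 7 stable genes (0.0609), TMM scaling (0.0551) or no minimum mean (0.0736). That of AURKB was gained without DMSO replicate 1 at 24 hours (0.00589). In AZD5153, PLK1 lost its rise without replicate 1 or 2 at either time (0.0588 to 0.0961), KIF15 without replicate 1 at 24 hours or replicate 1 or 2 at 48 hours (0.0526 to 0.0772) and KIF4A without replicate 2 at 24 hours or replicate 3 at 48 hours (0.0729 to 0.0776). Calls were gained for CCNB1 without AZD5153 replicate 1 at 24 hours (0.0361), for NDC80 (0.0486) and KIF2C (0.011) without AZD5153 replicate 1 at 48 hours, and for KIF20A as a fall without AZD5153 replicate 1 at 24 hours (0.0202) or at 48 hours (0.0489) or DMSO replicate 3 at 24 hours (0.0433). Without DMSO replicate 1 at 24 hours, CCNB1 (0.0234), KIF2C (0.0312) and, as a fall, KIF20A (0.0127) passed too. Among the other settings, scaling to 7 stable genes let CCNB1 (0.0131), NDC80 (0.0323) and KIF2C (0.0173) pass, and a fit of the compared groups alone let CCNB1 (0.0418) and, as a fall, KIF20A (0.0452) pass. The fall of KIF20A also passed with a minimum mean of 100 (0.05), TMM scaling (0.0454) or edgeR (0.0471), and PLK1 lost its rise with no minimum mean (0.0524) or no trend in eBayes (0.0508).

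**Figure D4:**
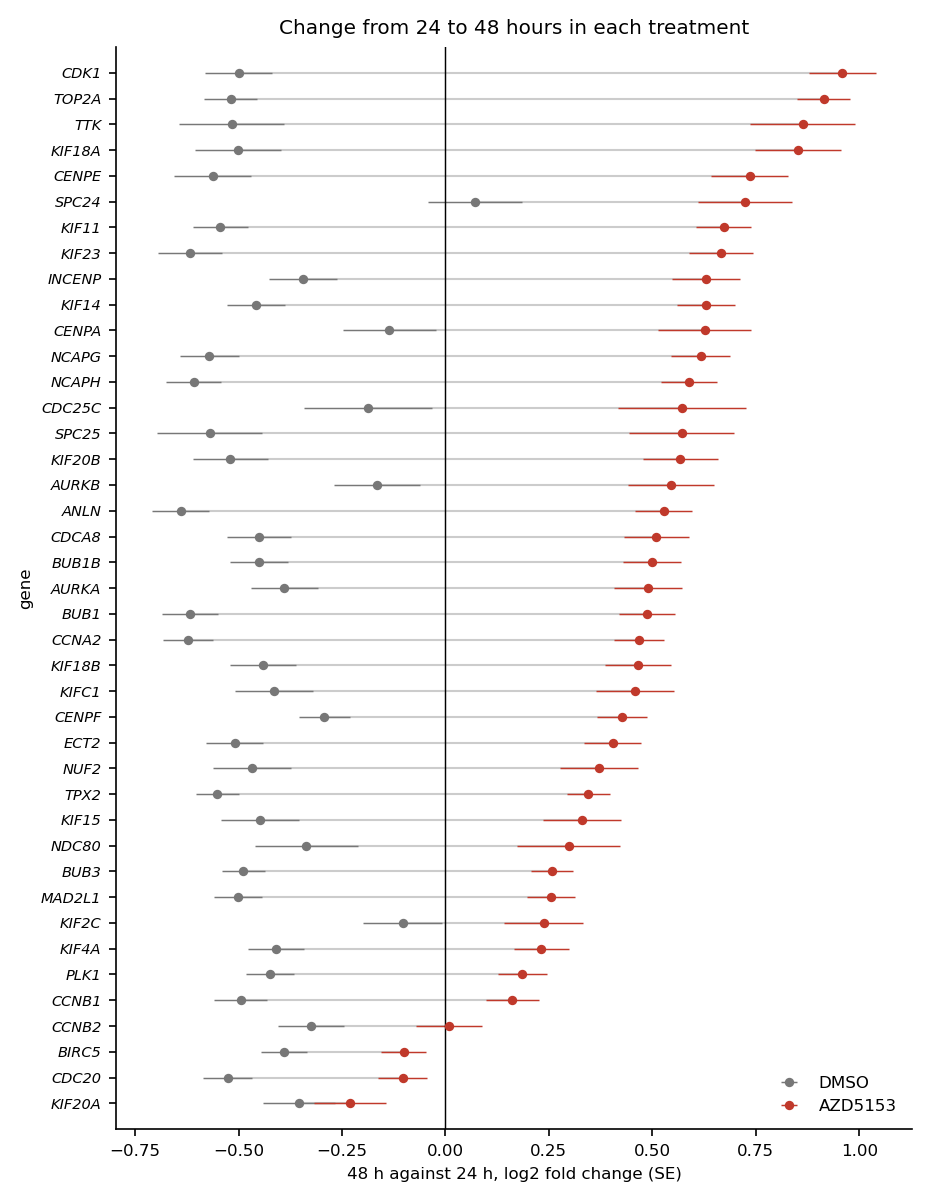
Log2 fold change from 24 to 48 hours in DMSO (grey) and in AZD5153 (red) for the 41 genes, with SE as bars, ordered by the change in AZD5153. Grey points lie below 0 for 40 genes (all but SPC24, 0.07) and red points above 0 for 38, from 0.96 for CDK1 down to -0.23 for KIF20A.

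Compared per kilobase of exon, which allows levels of different genes to be set side by side, the order of the genes changed with treatment. In DMSO at 24 hours TOP2A was highest at 2979 normalized counts per kilobase, followed by TPX2 (2430.1), ANLN (1923), CCNB1 (1771) and BIRC5 (1600.5). With AZD5153 at 24 hours BIRC5 was highest at 776, then CDC20 (593), ANLN (578), CCNB1 (536), TPX2 (502) and TOP2A (437). At 48 hours with AZD5153 it was ANLN (833), TOP2A (823) and BIRC5 (723). CDC25C was the lowest tested gene in every group, at 74.9 per kilobase in DMSO and 16.7 with AZD5153 at 24 hours. Few reads were counted on pseudogenes and copies found by name for these genes, the highest share being AURKAP1 at 0.233% of AURKA. How reads that align to several places were counted is not stated, so this share may understate the copies.

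Most promoters of these genes carried elements known from G2 and M genes. A window from 250 bases before to 50 bases after the start was found in the RefSeq promoter sequences (GRCh38.p14) for 37 of the 42 genes. AURKA, BIRC5, BUB3, TTK and TPX2 had no entry. The windows were searched on both strands for the cell cycle genes homology region (CHR; TTTGAA or TTCGAA), the element that MuvB binds through LIN54, and for the CCAAT box (CCAAT), the element of NF-Y. Matches of the 2 elements were counted separately where they share a base, as in CDCA8. A CHR was present in 28 of 37 windows (75.7%), against 11.3% of 11179 windows of tested genes and 16.6% of all 27305 windows. A CCAAT box was present in 28 of 37 (75.7%), against 36.6% and 35.7%, and both were present in 22 (59.5%), against 4.81% and 6.58%. In 16 of 37 windows (43.2%) there were 2 or more CCAAT boxes, against 13.6% of the windows of tested genes. In 25 of the 28 genes with a CHR it lay within 60 bases before to 50 bases after the start. The median log2 fold change was -2.23 at 24 hours and -1.11 at 48 hours in 27 tested genes with a CHR and -1.88 and -1.34 in 9 without, and it was -2.00 and -1.11 in 27 with a CCAAT box and -2.15 and -1.39 in 9 without. A match is a description of the letters and not evidence of binding.

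The following windows, from 150 bases before to 10 bases after the start, read 5′ to 3′ on the strand of the gene (RefSeq, GRCh38.p14), with the matched letters in capitals. They were chosen to show the arrangement in genes that the results turn on.
CCNB2, chr15:59104996-59105155, plus strand: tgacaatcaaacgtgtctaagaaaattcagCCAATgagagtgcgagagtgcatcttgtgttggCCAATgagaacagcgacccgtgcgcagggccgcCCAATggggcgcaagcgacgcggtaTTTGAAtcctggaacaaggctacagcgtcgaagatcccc
PLK1, chr16:23678739-23678898, plus strand: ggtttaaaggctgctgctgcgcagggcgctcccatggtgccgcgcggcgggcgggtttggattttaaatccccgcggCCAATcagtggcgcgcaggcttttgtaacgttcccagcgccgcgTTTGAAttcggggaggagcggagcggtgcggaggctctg
KIF18B, chr17:44947764-44947923, minus strand: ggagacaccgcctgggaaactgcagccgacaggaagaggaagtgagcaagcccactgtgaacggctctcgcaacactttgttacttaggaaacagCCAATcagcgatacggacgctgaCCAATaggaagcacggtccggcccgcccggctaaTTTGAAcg
CDC20, chr1:43358831-43358990, plus strand: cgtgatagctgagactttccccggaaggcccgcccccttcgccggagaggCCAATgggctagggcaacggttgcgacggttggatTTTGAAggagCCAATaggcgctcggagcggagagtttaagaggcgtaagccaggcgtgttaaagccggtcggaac
NCAPG, chr4:17810829-17810988, plus strand: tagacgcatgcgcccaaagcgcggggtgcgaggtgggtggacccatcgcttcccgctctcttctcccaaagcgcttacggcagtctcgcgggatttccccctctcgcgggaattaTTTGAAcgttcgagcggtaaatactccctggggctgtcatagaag
CCNA2, chr4:121823874-121824033, minus strand: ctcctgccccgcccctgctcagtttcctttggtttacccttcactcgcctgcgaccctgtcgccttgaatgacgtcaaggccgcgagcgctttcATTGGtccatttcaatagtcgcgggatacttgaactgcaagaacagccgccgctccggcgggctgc
KIF20A, chr5:138178962-138179121, plus strand: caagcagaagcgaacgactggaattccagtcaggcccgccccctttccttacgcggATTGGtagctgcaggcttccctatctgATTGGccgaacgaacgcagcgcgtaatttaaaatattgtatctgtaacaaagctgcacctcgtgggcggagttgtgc
KIF2C, chr1:44739687-44739846, plus strand: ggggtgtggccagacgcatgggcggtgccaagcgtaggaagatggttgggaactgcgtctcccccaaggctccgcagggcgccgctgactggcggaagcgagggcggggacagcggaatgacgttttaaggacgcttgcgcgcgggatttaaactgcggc
CCNB2 has 3 CCAAT boxes in the printed window ahead of a TTTGAA at 29 to 24 bases before the start, and PLK1 has a CCAAT box and a TTTGAA at the same distance. In KIF18B, the gene with the largest fall over both times, the TTTGAA lies at bases 3 to 8 of the transcript behind 2 CCAAT boxes. CDC20, with the smallest fall at 24 hours, has both elements too, the TTTGAA between the 2 boxes, and NCAPG has the TTTGAA without a CCAAT box. CCNA2 has a CCAAT box on the other strand and no letters that match the CHR as searched. KIF20A has 2 such boxes and KIF2C neither element. These 2 genes, whose difference between 24 and 48 hours did not pass the test as reported, are among the 9 tested genes without a CHR match, of which the other 7 passed it.

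**Figure D5:**
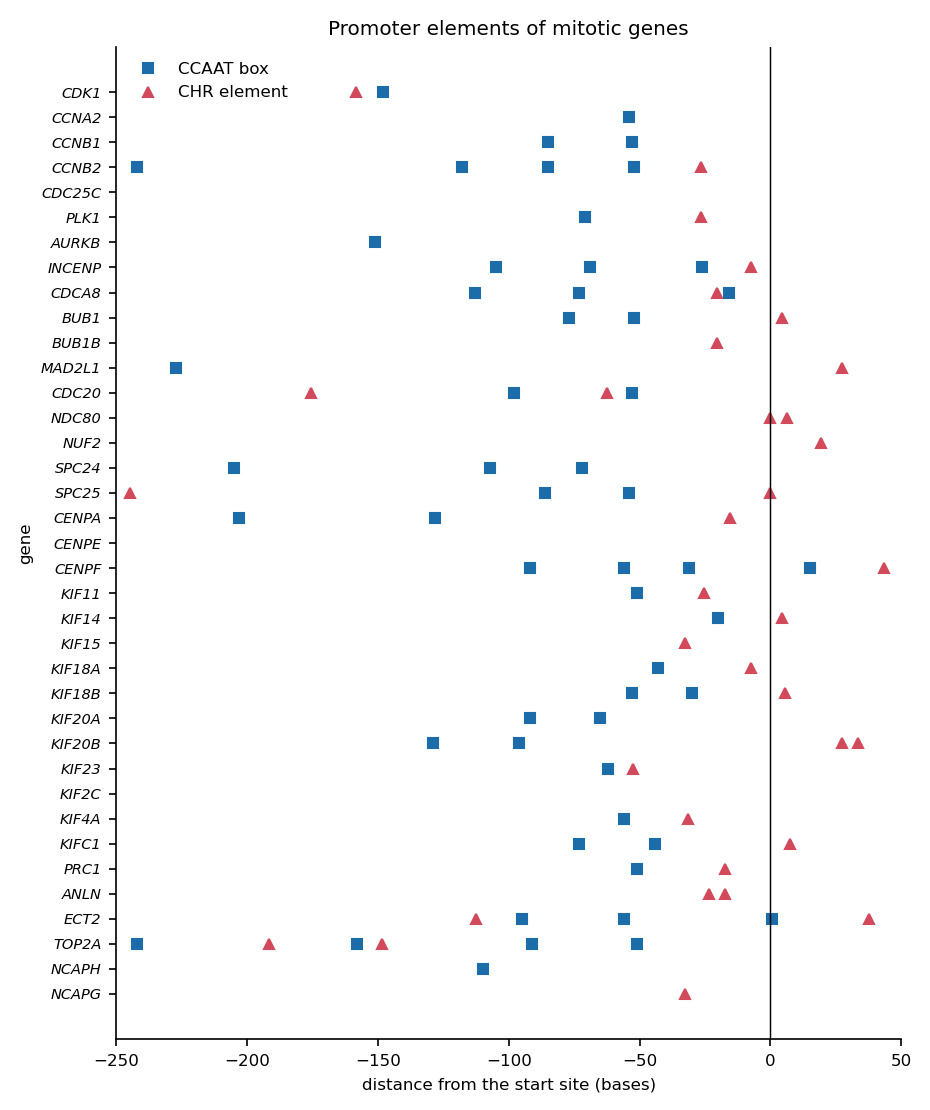
Position of CHR matches (triangles) and CCAAT matches (squares) relative to the start site (horizontal axis, bases) in the 37 genes with a promoter window. CCAAT boxes lie mostly upstream of the CHR matches, and 25 genes have a CHR within 60 bases before to 50 bases after the start.

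Other genes of the same processes were counted for comparison. Other kinetochore and centromere genes were lower in 31 of 31 at 24 hours (median -1.41) and in 20 of 31 at 48 hours (median -0.47), with none higher, where 34.6% and 33.9% of all genes were lower. HJURP, the chaperone that loads CENPA, had the largest fall over both times (-2.63 at 24 hours and -1.52 at 48 hours). It was at 2867, 2859.9 and 2818 in DMSO and 405, 496 and 479.8 with AZD5153 at 24 hours. HJURP at 48 hours was at 2083, 2011 and 2099 in DMSO and 687, 749 and 716 with AZD5153. Condensin and cohesin genes were lower in 17 of 17 at both times (medians -1.35 and -0.64), beside 34.6% and 33.9% of all genes, led by SGO1, the protector of centromeric cohesion (-3.07 and -2.30). SGO1 was at 578, 462 and 441 in DMSO and 68.4, 49.1 and 56.3 with AZD5153 at 24 hours. The 3 DMSO libraries at 48 hours had 317, 317 and 312, and the 3 AZD5153 libraries 56.5, 69.5 and 65.0. Other mitotic kinases, phosphatases and spindle genes were lower in 22 of 22 tested at 24 hours (median -1.98) and in 21 at 48 hours (median -1.19), against 34.6% and 33.9% of all genes, led over both times by PBK, a mitotic kinase (-2.48 and -1.58). PBK was at 2152, 1988 and 1794 in DMSO and 374, 400.3 and 293 with AZD5153 at 24 hours. PBK had values at 48 hours of 1386, 1341 and 1417 in DMSO and 442, 464 and 480.0 with AZD5153. In these 3 genes no treated library reached a DMSO library. NUSAP1 of that list had a mean of 6.10 and was not tested, and 81.4% of its exon bases overlap ENSG00000285920 on the same strand.

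Genes of the anaphase-promoting complex were found in both directions. Of its subunits, regulators and separase, 10 of 20 were lower and 8 higher at 24 hours (median -0.26), and 6 were lower and 10 higher at 48 hours (median 0.18). Of all genes tested, 34.6% were lower and 33.9% higher at 24 hours, and 33.9% and 33.1% at 48 hours, so these counts say little about the list. ESPL1, the separase that cuts cohesin, fell most. It was at 1727, 1878 and 2140.5 in DMSO and 256, 231 and 211 with AZD5153 at 24 hours, and its groups were far apart. By 48 hours ESPL1 stood at 1499, 1560.3 and 1587 in DMSO and 375, 411 and 443 with AZD5153. On the log2 scale the effect was -3.03 (SE 0.093, adjusted p = 2.55e-13) and then -1.92 (SE 0.093, adjusted p = 4.41e-11). ANAPC16, a structural subunit, rose most. It was at 929.9, 821 and 727 in DMSO and 1553, 1404 and 1361 with AZD5153 at 24 hours. ANAPC16 at 48 hours was at 887, 831 and 959.9 in DMSO and 1409.7, 1414 and 1598 with AZD5153. AZD5153 changed it by 0.81 (SE 0.090, adjusted p = 8.8e-07) at 24 hours and 0.72 (SE 0.090, adjusted p = 2.92e-06) at 48 hours on the log2 scale. The 8 genes that rose at 24 hours were the subunits ANAPC2, ANAPC4, ANAPC5, ANAPC7, ANAPC11, ANAPC16 and CDC16 and the ubiquitin-conjugating enzyme UBE2S. UBE2C, the other ubiquitin-conjugating enzyme of the complex (-2.27 at 24 hours and -1.11 at 48 hours), and FBXO5, its inhibitor EMI1 (-2.05 and -0.70), fell at both times (these names were picked from the list after their values were seen).

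Of 10 genes of the MuvB complex, B-MYB, FOXM1 and the related pocket proteins, 9 were lower at both times (medians -1.20 and -0.74), where 34.6% and 33.9% of all genes were lower. FOXM1, the forkhead factor of G2 and M genes, had the largest fall over both times. It was at 5425, 5612 and 5555 in DMSO and 1763, 1709 and 1750.3 with AZD5153 at 24 hours. The 3 DMSO libraries at 48 hours had 4239.8, 4189.7 and 4468, and the 3 AZD5153 libraries 1065, 1117 and 1064. Unlike the 41 mitotic genes, of which none had a negative difference that passed, its fall was larger at 48 hours. The fold changes were -1.67 (SE 0.047, adjusted p = 1.01e-13) and -1.99 (SE 0.047, adjusted p = 1.93e-14), with a difference of -0.32 (SE 0.067, adjusted p = 0.00266). In AZD5153 it fell from 24 to 48 hours, -0.69 (SE 0.047, adjusted p = 5.14e-08), the interval in which 34 of the mitotic genes rose. FOXM1 was the only 1 of the 10 genes with a negative difference that passed, and 5 had a positive one (median 0.32). Of all genes, 14.4% had a positive and 10.1% a negative difference that passed. With time in AZD5153, 4 of the 10 were higher and 1 lower, where 15.8% of all genes were higher and 13.8% lower. MYBL2, which encodes B-MYB (picked after its values were seen), fell (-1.56 at 24 hours and -1.24 at 48 hours), with a difference of 0.32 that did not pass (adjusted p = 0.0724). LIN37, a subunit of MuvB, was low, at 6.76, 9.96 and 11.6 in DMSO and 12.1, 29.7 and 18.4 with AZD5153 at 24 hours. LIN37 had values at 48 hours of 12.6, 1.77 and 7.56 in DMSO and 13.7, 15.2 and 14.5 with AZD5153. It was higher over both times together, 1.06 (SE 0.38, adjusted p = 0.0176), but passed at neither time alone (0.95 and 1.17). Most of its DMSO libraries were below 10 normalized counts and all of its AZD5153 libraries were above. LIN37 therefore reached the minimum mean of 10 only through the treated libraries. Its entry into the test depended on the change being tested, so no rise is concluded from this call. Other genes overlap 54.0% of its exon bases, 26.7% on the same strand. Replication genes, a set of S phase, were lower in 30 of 30 at 24 hours (median -1.74) and in 27 at 48 hours with 1 higher (median -1.03), against 34.6% and 33.9% of all genes lower, led by MCM5, a subunit of the replicative helicase (-2.48 and -2.20). MCM5 was at 2460.5, 2651 and 2934 in DMSO and 511, 489 and 441 with AZD5153 at 24 hours. By 48 hours MCM5 stood at 2078, 2254 and 1972 in DMSO and 508, 442 and 424 with AZD5153. In AZD5153, 14 of 30 replication genes rose from 24 to 48 hours (median 0.17), beside 34 of 41 mitotic genes (median 0.49) and 15.8% of all genes. The difference between these lists was not tested.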

How the data were processed

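Per the labels and the methods of the study, RNA was extracted with the RNeasy kit, sequenced as paired-end reads and quality-checked with FastQC, then aligned to hg38 with STAR, counted with HTSeq and normalized with DESeq2. Versions, annotation and strand setting are not given in the sources used here. The authors deposited the values as a signal, namely counts of a gene after division by the library's DESeq2 size factor, beside their own log2 fold changes, standard errors and p-values, none of which were used. In every library 100% of values were whole multiples of 1 step, so reads could be recovered, between 15759148 and 27335220 per library (median 20737337). The tolerance was 0.001 reads up to 100 reads and grew in proportion above, so for the highest counts this check could not fail. Of 60664 genes, 15599 with a mean of at least 10 were tested with limma 3.58.1 in R 4.3.3 on log2(value + 1): lmFit on 4 groups (8 residual degrees of freedom), eBayes with trend, Benjamini-Hochberg adjustment at 0.05, and treat for falls above 2-fold. With 3 against 3 libraries an exact permutation test cannot go below p = 0.1, so none is given. The fits were tested on simulated data in which far fewer genes changed than here, in equal number up and down. That simulation does not cover changes as broad as those in these libraries. Per-library values are given, by rule, for the largest and smallest change over both times and the highest mean in each role group, and for the largest fall and rise of each other list. The members and lists were chosen with earlier results of these data known. Alternatives were other pseudocounts, filters, scalings, fits, edgeR 4.0.16 and DESeq2 1.42.0 on the recovered reads, a replicate block and leaving out each library. Positions are from GENCODE 44 and promoters from RefSeq. CUT&RUN data and JQ1 libraries were not analysed here.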

Additional observations from a re-analysis of the deposited data

Results flagged for a closer look

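These results were picked out because the effect of AZD5153 differed between 24 and 48 hours by a test of the difference itself (48 minus 24 hours, log2 scale, limma adjusted p under 0.05). A positive value means a smaller fall at 48 hours. In mitotic entry the differences were 1.46 for CDK1, 1.09 for CCNA2, 0.76 for CDC25C, 0.66 for CCNB1 and 0.33 for CCNB2. Among Polo, Aurora and passenger genes they were 0.98 for INCENP, 0.96 for CDCA8, 0.88 for AURKA, 0.71 for AURKB, 0.61 for PLK1 and 0.29 for BIRC5, which was 0.15 and did not pass with quantile normalization (adjusted p = 0.218). For the checkpoint they were 1.38 for TTK, 1.10 for BUB1, 0.95 for BUB1B, 0.76 for MAD2L1, 0.75 for BUB3 and 0.42 for CDC20. Kinetochore and centromere genes had 1.30 for CENPE, 1.14 for SPC25, 0.84 for NUF2, 0.76 for CENPA, 0.72 for CENPF, 0.65 for SPC24 and 0.63 for NDC80. Kinesins had 1.35 for KIF18A, 1.28 for KIF23, 1.22 for KIF11, 1.09 for KIF14, 1.09 for KIF20B, 0.91 for KIF18B, 0.87 for KIFC1, 0.78 for KIF15 and 0.64 for KIF4A. The remaining values were 1.17 for ANLN, 0.91 for ECT2, 0.90 for TPX2, 1.43 for TOP2A, 1.20 for NCAPH and 1.19 for NCAPG. CDK1, TOP2A and TTK had the largest of these differences, and BIRC5 and CCNB2 the smallest.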

How the results depend on the processing

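At 24 hours all 1025 combinations of a gene and a setting kept direction and call, and over both times all 984 did. At 48 hours 1021 of 1025 did, and the other 4 were NCAPG passing the test. For the difference between times 962 of 984 kept their call, 19 lost it (17 of them CCNB2, with CDC25C and BIRC5) and 3 gained it (KIF2C). For the change with time, 1012 of 1025 in DMSO and 997 of 1025 in AZD5153 kept their call, and no change that passed the test, as reported or under an alternative, turned its direction. Scaling to equal totals moved the median of all genes by -0.12 at 24 hours and -0.17 at 48 hours. The median of the 41 genes was then -2.13 at 24 hours, -1.30 at 48 hours and -1.81 over both times, values that include the shift. Of all genes, 6293 were then lower and 4340 higher at 24 hours (5392 and 5287 as reported), and 6511 lower and 3896 higher at 48 hours (5294 and 5159). With equal totals the difference between times passed as positive for 1760 genes and as negative for 1893 (2254 and 1575 as reported). With time in DMSO, 2440 were lower and 3126 higher under that scaling (3015 and 2551 as reported). Quantile normalization gave -1.57 over both times and 0.78 for the difference. With scaling to 7 stable genes, 3406 of all genes were higher and 1372 lower with time in AZD5153 (2472 and 2155 as reported). The difference between times then passed as positive for 2825 genes and as negative for 1165. The cause was not tested. Leaving out each library in turn gave 41 lower genes at 24 hours, 40 to 41 at 48 hours, 37 to 39 with a positive difference, 35 to 36 lower with time in DMSO and 32 to 36 higher with time in AZD5153. Replicate numbers did not pair the libraries (correlation of deviations -0.15 to 0.036 over 18 pairs, 0 over 0.1). With a replicate block 41 genes were lower at 24 hours and 40 at 48 hours, 38 had a positive difference, and 35 were lower with time in DMSO and 34 higher in AZD5153.

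The lowest group mean of a tested gene was 55.6 normalized counts (CDC25C). PRC1 was too low to test, and whether reads were lost to the overlapping gene was not tested. The table holds 1 cell line and 3 libraries per group. Protein and cell cycle phase were not measured in the table.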

Other observations

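With AZD5153 for 48 hours, limma called a fall for 33.9% and a rise for 33.1% of the 15599 genes. Genes without a call were thus common, and counting them says little about a list. Of the 31 other kinetochore and centromere genes, all lower at 24 hours, 11 did not pass the test at 48 hours (names and values picked after they were seen). They included CENPC (-0.85 at 24 hours and 0.02 at 48 hours), CENPT (-0.66 and -0.05), CENPN (-1.42 and -0.21) and CENPP (-0.77 and 0.15) of the inner kinetochore. KNL1 (-1.17 and 0.03), MIS12 (-0.49 and -0.19) and NSL1 (-0.77 and -0.04), which link the inner kinetochore to the NDC80 complex, were also among the 11. Other subunits were lower at 48 hours, DSN1 (-0.65) and PMF1 (-0.46) of the MIS12 complex and CENPH (-1.06), CENPI (-0.38), CENPK (-1.45) and CENPL (-0.81) of the inner kinetochore, and no difference between complexes was tested. The other 4 genes that did not pass were OIP5, SKA1, ZW10 and ZWILCH. Other genes overlap 92.5% of the exon bases of OIP5, 43.2% of CENPP, 23.3% of PMF1, 23.1% of CENPN and 20.2% of CENPT, and reads there cannot be assigned with certainty. RRM2, a subunit of ribonucleotide reductase, was the replication gene that was higher at 48 hours. It was at 2843, 2929 and 2992 in DMSO and 4194, 4161 and 4237 with AZD5153 at 48 hours, 0.52 (SE 0.051, adjusted p = 1.69e-07) by limma, after -0.85 (SE 0.051, adjusted p = 4.91e-10) at 24 hours.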
